A study of Homo sapiens with 15 samples.

Results

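The mitochondrial ribosomal proteins were read as every probe set, controls left out, that the platform annotation assigns to 1 gene with a symbol beginning MRPL or MRPS and a digit. The rule found 140 probe sets of 75 genes, 48 named MRPL and 27 named MRPS, among 54613 probe sets. Of these, 131 probe sets passed a filter on low values and were tested, and each of the 75 genes kept at least 1 of them. The 9 that did not pass had mean log2 values of 0.74 to 2.59, and each belongs to a gene with another probe set that was tested. Of the 75 genes, 34 had several tested probe sets and 41 had 1.

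The cells were THP-1, a human monocytic leukaemia line, and total RNA was hybridised to Affymetrix expression arrays, 3 arrays to each of 5 groups. The control group was untreated and taken at 0 h. The other groups were exposed to infliximab (labelled IFX) for 6 h or 24 h, or to CDP870 for 6 h or 24 h. Infliximab is a whole chimeric IgG1 antibody to the cytokine TNF, and CDP870, known as certolizumab pegol, is a pegylated antibody fragment to TNF without an Fc part. No untreated cells were taken at 6 h or 24 h. In each comparison with 0 h the agent and the time in culture therefore cannot be told apart. Only the comparisons of the agents with each other, at 1 time or over both times with equal weight, are free of this. Doses are not stated in the labels. The design text names them biological replicates, but no label names separate cultures, so p-values rest on the spread between these arrays, which may in part be technical.

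The mitochondrial ribosome sits in the matrix and translates the few messages of mitochondrial DNA, all of which code for subunits of the respiratory chain and ATP synthase. Its rRNAs come from mitochondrial DNA, while its proteins are nuclear-encoded, made in the cytosol and imported. Some of these proteins belong to families shared with the bacterial ribosome, and others are found only on mitochondrial ribosomes. The small subunit decodes the message and the large subunit joins the amino acids.

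Some facts of the whole series bear on what follows. Values are log2 with an unknown zero, so differences between groups can be read, and a level is not read as an amount of RNA. Array medians lay between 2.9 and 3.1, so these values cannot show a shift common to most transcripts. Of 9 monocytic markers, 8 were above the array median on all 15 arrays and CD14 on 2. Of 7 epithelial markers, 6 (KRT18, KRT8, KRT5, EPCAM, KRT19 and CLDN4) were also above the median on all 15 arrays, while CDH1 lay at 1.79 to 2.28. So were the B-cell markers PAX5, CD79B and CD79A, the T-cell markers CD3D and CD3E, COL1A1 and HBB, while MS4A1, CD3G, CD2, COL1A2, COL3A1 and LUM were above it on none, so this measure alone names no cell type. The summed log2 value of the epithelial list was 39.8 to 41.3 at 0 h, 42.6 to 43.8 and 43.1 to 43.6 with infliximab at 6 h and 24 h, and 37.1 to 39.2 and 37.9 to 38.2 with CDP870. The sum over the monocytic list was 53.3 to 57.2 at 0 h, 55.8 to 57.6 and 56.4 to 61.2 with infliximab, and 54.7 to 55.9 and 54.3 to 55.0 with CDP870, and 3 of its 8 tested genes (FCER1G, TYROBP and CSF1R) were higher with infliximab than with CDP870 over both times. Of the 6 tested epithelial genes, 5 were higher with infliximab than with CDP870 over both times. The median log2 difference of the 6 between the agents was 0.973 at 6 h and 0.952 at 24 h. Against 0 h their median was 0.532 and 0.6 with infliximab, and -0.428 and -0.358 with CDP870, where none was called. The epithelial list thus moved in opposite directions with the agents. Both lists were on average higher with infliximab than with CDP870, and their part in the results below was not tested. The mean of the hybridisation spike-ins was 7.38 ± 0.13 at 0 h, 7.75 ± 0.04 with infliximab at 6 h, 7.51 ± 0.15 at 24 h, and 7.5 ± 0.12 and 7.60 ± 0.20 with CDP870 (SD, n = 3). The arrays with the lowest median correlation to the others were infliximab 24 h replicates 5 (0.972) and 6 (0.979) and control replicate 3 (0.982). Infliximab 24 h replicate 6 also had the highest 3′ minus 5′ differences, 0.24 for GAPDH and 0.27 for ACTB, where no other array was above 0.03, and the lowest member median (-0.24). In bulk RNA, fewer cells of a type and less RNA per cell cannot be told apart.

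Promoter sequence from RefSeq (GRCh38.p14) was read for 67 of the 75 genes, in 83 windows of 300 bases. Stretches of 3 genes that were lower with infliximab than with CDP870 are printed here 5′ to 3′ on the strand of the gene, with motif matches in capitals. MRPS12 is shown because its start lies 180 bases from that of SARS2, the mitochondrial seryl-tRNA synthetase gene, which runs the other way, so that the 180 bases are all that separates them. MRPL27 is shown because 44 bases separate it from the start of EME1 on the other strand, and the capitals are a match to the ETS motif. MRPL22 is shown for a match to the NRF1 motif on the other strand. NRF1 and the ETS factor GABP are textbook regulators of nuclear genes for mitochondrial proteins.
MRPS12, chr19:38930764-38930943, plus strand: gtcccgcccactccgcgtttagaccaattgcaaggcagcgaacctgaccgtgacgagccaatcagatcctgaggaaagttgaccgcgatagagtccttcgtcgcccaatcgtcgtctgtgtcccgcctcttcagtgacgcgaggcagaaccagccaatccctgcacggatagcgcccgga
MRPL27, chr17:50373185-50373228, minus strand: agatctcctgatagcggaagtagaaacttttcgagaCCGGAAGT
MRPL22, chr5:154940953-154941072, plus strand: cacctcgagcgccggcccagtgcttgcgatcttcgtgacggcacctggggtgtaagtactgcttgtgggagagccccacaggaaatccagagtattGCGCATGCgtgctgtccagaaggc

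Each motif was searched as exact letters on both strands, each counted on its own, so matches of different motifs may overlap. The NRF1 motif GCATGCGC was in 6 of the 83 member windows (7.23%) and in 3.05% of all 35116 windows. The ETS motif CCGGAAGT was in 13 (15.7%, against 4.14% of all). The YY1 motif AAGATGGCG was in 12 (14.5%, against 1.75% of all). The E-box CACGTG, which reads the same on both strands, was in 9 (10.8%, against 7.26%). The letters TGATGCAA, an ATF4-type response element, were in none of the member windows and in 0.866% of all. Of 25 lower genes with a window, the NRF1 motif was in 3, ETS in 6, YY1 in 3, the E-box in 4 and TGATGCAA in 0. MRPL22 had matches to the NRF1, YY1 and E-box letters, and the printed stretch of MRPS12 had no match. These shares and counts describe letters in a window and no test was made of them.

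With the 6 arrays of each agent compared over both times, 32 of the 131 member probe sets, from 27 genes, were lower with infliximab than with CDP870 and 3 were higher (limma, adjusted p under 0.05). That is 24.4% lower, where 6.55% of all 28897 tested probe sets were lower, and 2.29% higher, where 9.41% of all were higher. The shift was small for most genes: the median log2 difference was -0.11 over the member probe sets and -0.02 over all tested, and no called member reached 2-fold. In 26 members (19.8%) all 6 infliximab arrays lay below all 6 CDP870 arrays, against 3.74% of all tested probe sets. Taking 1 probe set a gene, the one with the highest mean, 26 of the 75 genes were lower, 1 was higher and 48 were not called. Because calls are more frequent among probe sets with high array values, the members were also split at the median mean value of all tested probe sets, as a rank on the array. Above it lay 110 members, and of those 29 were lower with infliximab, where 10.3% of all probe sets in that range were lower. Of the other 21 members 3 were lower, against 2.78%.

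**Figure D1:**
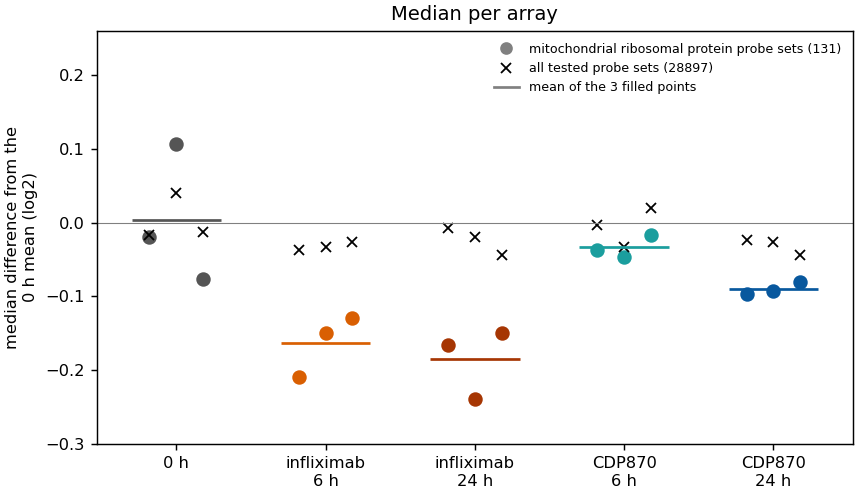
Median log2 difference from the 0 h mean for each of the 15 arrays, over the 131 tested member probe sets (filled points, with a line at the mean of 3) and over all 28897 tested probe sets (crosses). The infliximab arrays lie between -0.24 and -0.13, below every CDP870 array (-0.10 to -0.02), and the 0 h arrays spread from -0.08 to 0.11.

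MRPS12 carried the largest called difference. It is the homologue of bacterial S12, a protein of the decoding centre and the site of streptomycin resistance mutations in bacteria. Its probe set 210008_s_at read 5.96, 6.29 and 5.91 at 0 h, 5.27, 5.29 and 5.29 with infliximab at 6 h and 5.12, 4.89 and 5.23 at 24 h. With CDP870 it read 5.75, 6.04 and 6.15 at 6 h and 5.82, 5.87 and 6.01 at 24 h. Every infliximab array lay below every other array. MRPS12 was lower with infliximab than with CDP870 by a log2 difference of -0.70 ± 0.13 at 6 h (SE, limma adjusted p = 0.0040), -0.82 ± 0.13 at 24 h (adjusted p = 0.0013) and -0.76 ± 0.09 over both times (adjusted p = 5.4e-05), 1.69-fold. Of its other tested probe sets, 204331_s_at (-0.43 ± 0.09, adjusted p = 0.0035) and 204330_s_at (-0.52 ± 0.10, adjusted p = 0.0029) were also lower over both times. The fourth, 213840_s_at, gave -0.14 ± 0.10 (adjusted p = 0.36). SARS2, on the other side of the shared 180 bases, gave -0.15 ± 0.09 between the agents over both times (adjusted p = 0.32).

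**Figure D2:**
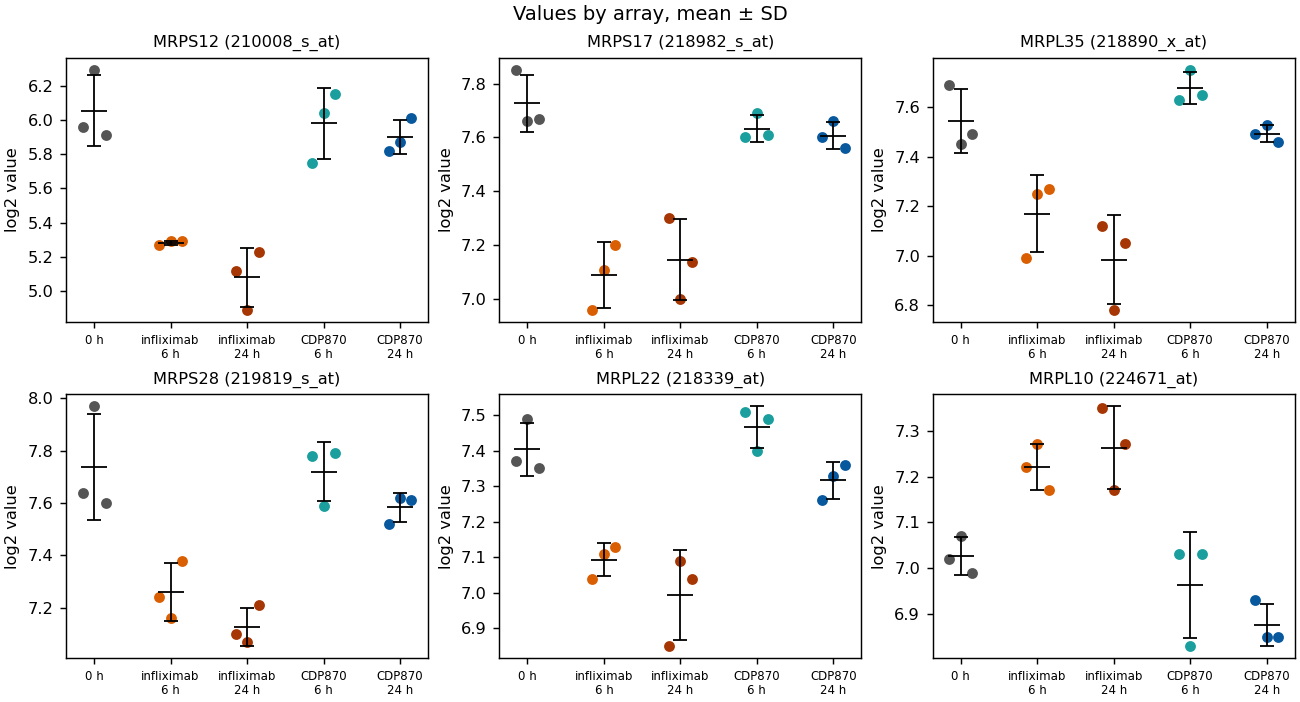
Log2 values on the 15 arrays for 1 probe set each of MRPS12, MRPS17, MRPL35, MRPS28, MRPL22 and MRPL10, with mean and SD of each group of 3; the vertical axes differ and do not start at 0. In MRPS12, MRPS17, MRPL35, MRPS28 and MRPL22 each infliximab array lies below each CDP870 and 0 h array, and in MRPL10 each lies above.

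Of the other small-subunit proteins, MRPS17, a homologue of bacterial S17 that binds rRNA, read 7.85, 7.66 and 7.67 at 0 h and 6.96, 7.11 and 7.20 with infliximab at 6 h. It read 7.30, 7.0 and 7.14 with infliximab at 24 h, 7.60, 7.69 and 7.61 with CDP870 at 6 h and 7.60, 7.66 and 7.56 at 24 h. The infliximab arrays did not overlap with any others, and the difference between the agents over both times was -0.50 ± 0.07 (adjusted p = 0.00020). MRPS28 read 7.64, 7.97 and 7.60 at 0 h, 7.24, 7.16 and 7.38 and then 7.10, 7.07 and 7.21 with infliximab, and 7.78, 7.59 and 7.79 and then 7.52, 7.62 and 7.61 with CDP870. It was again lower on every infliximab array, by -0.46 ± 0.08 (adjusted p = 0.00084). Among further proteins with bacterial counterparts, MRPS7 (-0.37 ± 0.07, adjusted p = 0.0020), MRPS5 (224333_s_at, -0.30 ± 0.06, adjusted p = 0.0033) and MRPS11 (211595_s_at, -0.34 ± 0.08, adjusted p = 0.0063) were lower. MRPS34, found only on mitochondrial ribosomes, was lower by -0.25 ± 0.08 (adjusted p = 0.046).

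In the large subunit MRPL35 was called lower by all 3 of its tested probe sets. The one with the highest mean, 218890_x_at, read 7.69, 7.45 and 7.49 at 0 h, 6.99, 7.25 and 7.27 and then 7.12, 6.78 and 7.05 with infliximab, and 7.63, 7.75 and 7.65 and then 7.49, 7.53 and 7.46 with CDP870. All 6 infliximab values lay below the rest, and the difference between the agents was -0.51 ± 0.08 (adjusted p = 0.00042), with -0.41 ± 0.09 and -0.31 ± 0.10 in its other 2 probe sets. Of the 11 genes with several tested probe sets and at least 1 of them lower, it was the only 1 with all of them lower.

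MRPL27, whose bacterial counterpart reaches toward the peptidyl transferase centre, read 8.0, 8.13 and 7.81 at 0 h, 7.5, 7.45 and 7.58 and then 7.57, 7.47 and 7.46 with infliximab, and 8.01, 8.09 and 8.09 and then 7.69, 7.80 and 7.99 with CDP870. Its difference was -0.44 ± 0.07 over both times (adjusted p = 0.00069), called at 6 h (-0.55 ± 0.10, adjusted p = 0.0039), while at 24 h it was -0.33 ± 0.10 (adjusted p = 0.071). MRPL22 and MRPL4, whose bacterial counterparts line the exit tunnel, were lower by -0.35 ± 0.06 (adjusted p = 0.0013) and, for MRPL4 probe set 223742_at, -0.37 ± 0.08 (adjusted p = 0.0048). MRPL12, the stalk protein that recruits translation factors, read 7.72 to 7.85 on the 6 infliximab arrays and 8.03 to 8.14 on the 6 CDP870 arrays. Its 203931_s_at difference was -0.28 ± 0.08 (adjusted p = 0.025), and the other probe set, 229165_at, gave -0.39 ± 0.16 (adjusted p = 0.11). MRPL18 was lower by -0.25 ± 0.05 (adjusted p = 0.0066).

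**Figure D3:**
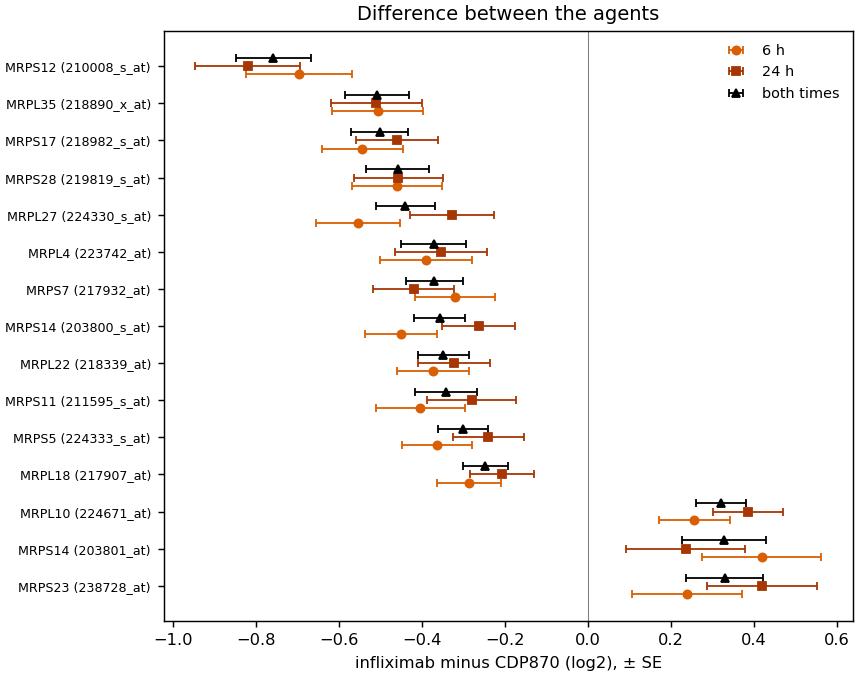
Log2 difference, infliximab minus CDP870, with its standard error at 6 h (circles), 24 h (squares) and over both times (triangles) for the 12 members with the smallest p among those lower over both times, and for the 3 that were higher. The 12 lie left of 0 and the 3 right of 0 at each time.

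Few members went the other way. MRPL10, which anchors the stalk to the large subunit, read 7.02, 7.07 and 6.99 at 0 h, 7.22, 7.27 and 7.17 and then 7.35, 7.17 and 7.27 with infliximab, and 7.03, 6.83 and 7.03 and then 6.93, 6.85 and 6.85 with CDP870. Every infliximab array was above every other array, and MRPL10 was higher with infliximab than with CDP870 by 0.39 ± 0.09 at 24 h (adjusted p = 0.014) and 0.32 ± 0.06 over both times (adjusted p = 0.0021). Its differences of 0.19 and 0.24 from 0 h did not pass the test (adjusted p = 0.19 and 0.12). MRPS23 rested on 238728_at (0.33 ± 0.09, adjusted p = 0.027), while its other probe set, 223156_at, gave -0.02 ± 0.07 (adjusted p = 0.87). MRPS30, which despite its name is a large-subunit protein, was higher at 6 h in 227600_at (0.54 ± 0.15, adjusted p = 0.042), where its 218398_at gave 0.05 ± 0.09 (adjusted p = 0.74).

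MRPS14 was the only gene with calls in both directions. Probe set 203800_s_at read 8.34, 8.43 and 8.24 at 0 h, 7.81, 7.84 and 7.92 and then 7.81, 7.83 and 7.90 with infliximab, and 8.28, 8.32 and 8.32 and then 8.04, 8.03 and 8.26 with CDP870. Probe set 203801_at read 4.46, 3.96 and 4.17 at 0 h, 4.46, 4.62 and 4.5 and then 4.21, 4.33 and 4.60 with infliximab, and 3.94, 4.01 and 4.37 and then 4.14, 4.24 and 4.05 with CDP870. The infliximab arrays were all lowest in 203800_s_at (-0.36 ± 0.06, adjusted p = 0.0012) and overlapped with CDP870 in 203801_at (0.33 ± 0.10, adjusted p = 0.039). The mean of both had a difference of -0.01, so the 2 probe sets together give no direction for MRPS14. In the counts of lower genes it stands as lower, through 203800_s_at, the probe set with the higher mean.

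**Figure D4:**
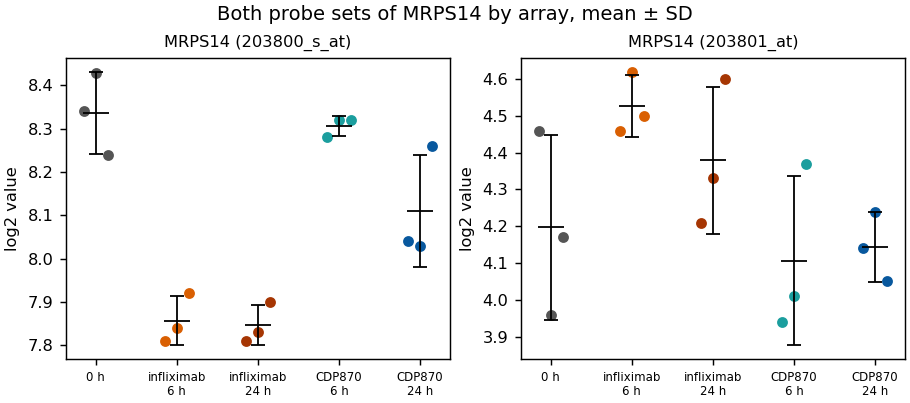
Log2 values of both tested probe sets of MRPS14 on the 15 arrays, with mean and SD of each group of 3; the vertical axes differ. The infliximab arrays lie at 7.81 to 7.92 in 203800_s_at, below all others, and at 4.21 to 4.62 in 203801_at, where they overlap with the other groups.

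At the single times the calls were fewer. At 6 h 12 members were lower with infliximab than with CDP870 (9.16%, against 3.98% of all tested) and 1 was higher (5.1% of all). At 24 h 9 were lower (6.87%, against 1.79%) and 1 was higher (4.73% of all). The median log2 difference was -0.12 at 6 h and -0.09 at 24 h, against -0.03 and 0.00 over all tested. MRPS12, MRPS17, MRPS28, MRPL22 and MRPL35 were called lower at both times. They make up 38.5% of the 13 calls at 6 h and 50% of the 10 calls at 24 h, counts that join both directions. The share of calls repeated at both times over all probe sets is not given here, so the overlap is not read as a trait of the members. Fitted on the 6 arrays of each time alone, the calls became 33 at 6 h and 1 at 24 h. With the spike-in mean as a covariate, the 13 calls at 6 h became 2 and the 35 over both times became 26. At 6 h that mean was 7.71 to 7.78 with infliximab and 7.38 to 7.63 with CDP870. The covariate thus cannot be told apart from the agent at 6 h. Leaving out 1 array gave 5 to 8 calls at 6 h, 3 to 12 at 24 h and 19 to 33 over both times, the lowest count over both times without infliximab 6 h replicate 9. The counts of these alternative fits join both directions, and the share called over all probe sets in the same fits is not given here. From the counts printed here alone, a change in member calls therefore cannot be told apart from a change in calls over the whole array.

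Against 0 h, 20 members of 17 genes were lower with infliximab at 6 h and none was higher. That is 15.3% lower, where 4.4% of all tested were lower and 4.02% higher. At 24 h 21 members of 18 genes were lower and none was higher, which is 16% where 2.79% of all tested were lower and 3.78% higher. The median log2 differences were -0.15 and -0.20 over the members and -0.04 and -0.02 over all tested. All 3 infliximab arrays lay below all 3 control arrays in 47 members at 6 h (35.9%, against 17.1% of all) and in 43 at 24 h (32.8%, against 10.5%). Among genes with several tested probe sets, 8 had at least 1 lower at 6 h and 10 at 24 h, and none had all of them lower. MRPS12 fell in probe set 210008_s_at by 0.77 ± 0.13 at 6 h (adjusted p = 0.0023) and by 0.97 ± 0.13 at 24 h (adjusted p = 0.00038), 1.96-fold. MRPS17 fell by 0.64 ± 0.10 and 0.58 ± 0.10 (adjusted p = 0.0014 and 0.0028), and MRPL4 probe set 223742_at by 0.62 ± 0.11 and 0.63 ± 0.11 (adjusted p = 0.0040 and 0.0039). MRPL55 fell by 0.59 ± 0.13 at 6 h (225719_s_at, adjusted p = 0.012) and MRPL19 by 0.49 ± 0.13 at 24 h (203465_at, adjusted p = 0.032).

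These counts against 0 h changed when single arrays were left out and when the spike-in level entered as a covariate. The spike-in level was highest in the infliximab 6 h group, at 7.71 to 7.78 against 7.23 to 7.46 at 0 h. These ranges do not overlap, so at 6 h the covariate cannot be told apart from the groups compared. With that level as a covariate no member was called at 6 h (29 of 131 had an unadjusted p under 0.05, with a median of -0.19) and 15 were called at 24 h. The 20 calls at 6 h became 11 without control replicate 3, 9 without infliximab 6 h replicate 8, 8 without replicate 9 and 13 without replicate 10. The 21 calls at 24 h became 13 without control replicate 2, 8 without the 3 arrays that stood apart and 1 in a fit of these 2 groups alone. For these alternatives too the share called over all probe sets is not given here.

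With CDP870 no member was called against 0 h at either time, nor was any other probe set (0% called, both directions and both times). An unadjusted p under 0.05 was found for 1 member at 6 h and 8 at 24 h, and limma's smallest adjusted p among members was 0.97. The median log2 difference was -0.05 at 6 h and -0.10 at 24 h over the members, and -0.01 and -0.03 over all tested. This does not show that CDP870 left these genes as they were: for MRPS12 210008_s_at the 95% interval ran from -0.35 to 0.20 at 6 h and from -0.43 to 0.12 at 24 h. For MRPL4 223742_at it ran from -0.46 to 0.01 and from -0.51 to -0.04. The comparisons of both agents with 0 h share the same 3 control arrays.

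Between 24 h and 6 h no member and no other probe set was called with infliximab (0%), with CDP870 (0%) or in the interaction of agent and time (0%). An unadjusted limma p under 0.05 was found for 7, 3 and 4 of the 131 members. Without infliximab 24 h replicate 7, 4 members were called between 24 h and 6 h of infliximab, and the share called over all probe sets in that fit is not given here.

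Genes were also divided by subunit and by whether the protein has a bacterial counterpart. Over both times, 21 of the 45 genes with a bacterial counterpart were lower with infliximab than with CDP870 and 1 was higher. Of the 30 proteins specific to mitochondria 5 were lower. Among all tested probe sets 6.55% were lower and 9.41% higher. Against 0 h the lower counts with infliximab were 15 of 45 and 2 of 30 at 6 h, where 4.4% of all tested probe sets were lower. At 24 h they were 15 of 45 and 3 of 30, where 2.79% of all were lower. The median differences between the agents over both times were -0.28 and -0.18 for the small- and large-subunit proteins with a bacterial counterpart, and -0.01 and -0.07 for those without. Each gene is read here from its probe set with the highest mean, and calls are more frequent at high values. Above the median value 10.3% of all tested probe sets were lower over both times. The classes share the same arrays, and the difference between them was not tested.

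**Figure D5:**
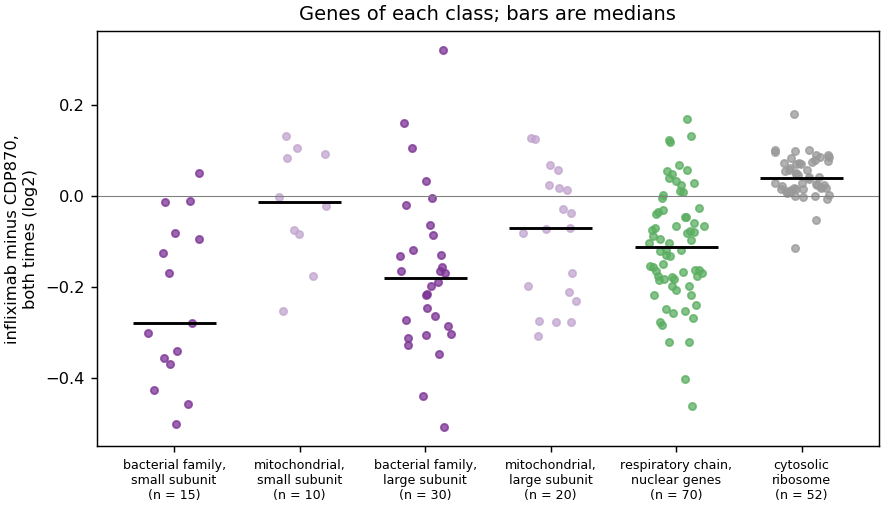
Log2 difference over both times, infliximab minus CDP870, for 1 probe set per gene (the one with the highest mean), by subunit and family, with the nuclear genes of the respiratory chain and the cytosolic ribosome; bars are medians. The medians are -0.28, -0.01, -0.18, -0.07, -0.11 and 0.04 from left to right.

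Genes that work with the mitochondrial ribosome were read from lists, 1 probe set per gene, beside the 6.55% of all tested probe sets that were lower over both times and the 9.41% that were higher. Those shares are over probe sets of all levels, while each gene is read from its probe set with the highest mean. Most genes on each list were not called, and no list was tested against the other genes. GADD45GIP1, a mitoribosomal protein with another kind of name, read 7.28, 7.32 and 7.41 with CDP870 at 6 h and 6.77, 6.75 and 7.07 with infliximab. It was the only 1 of 4 such genes called, at -0.41 ± 0.08 over both times (212891_s_at, adjusted p = 0.0041). Of 14 translation factors 2 were lower over both times: SLIRP, which stabilises mitochondrial messages (-0.46 ± 0.06, adjusted p = 0.00019), and TACO1, an activator of COX1 translation (-0.29 ± 0.06, adjusted p = 0.0076). SLIRP read 9.07 to 9.27 on the infliximab arrays and 9.52 to 9.70 on the CDP870 arrays, with no overlap. Of 15 mitochondrial tRNA synthetases, EARS2, LARS2 and RARS2 were lower and WARS2 was higher (0.28 ± 0.09, adjusted p = 0.045).

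Of 23 assembly factors, 3 were lower and 1 was higher over both times. MTERF4, which guides an rRNA methyltransferase, was lower (-0.47 ± 0.07, adjusted p = 0.00025), with MALSU1 and MPV17L2. NOA1, a GTPase of mitoribosome assembly, was higher (0.42 ± 0.06, adjusted p = 0.00052), at 7.17 to 7.51 on the infliximab arrays against 6.89 to 6.95 with CDP870. Of 13 regulators of mitochondrial biogenesis, PPRC1 (-0.46 ± 0.13, adjusted p = 0.028) and HCFC1 (-0.37 ± 0.11, adjusted p = 0.029), both coactivators, were lower, and MYC was higher (0.26 ± 0.06, adjusted p = 0.0069). PPRC1 and HCFC1 were called at 6 h (-0.73 ± 0.19 and -0.64 ± 0.15, adjusted p = 0.024 and 0.016), while at 24 h they gave -0.18 ± 0.19 and -0.09 ± 0.15 (adjusted p = 0.65 and 0.80).

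The products of the mitochondrial ribosome and the other ribosome were set beside the members. None of 7 mitochondrially encoded genes was called between the agents. COX1 rose against 0 h by 0.46 ± 0.10 with infliximab at 6 h (adjusted p = 0.011) and by 0.47 ± 0.10 at 24 h (adjusted p = 0.011), and its difference was 0.52 ± 0.10 with CDP870 at 24 h (unadjusted p = 0.00012, adjusted p = 0.97). Of 70 nuclear genes of the respiratory chain, 16 were lower and 1 was higher between the agents over both times, with a median of -0.11, and 53 were not called. Among all tested probe sets 6.55% were lower and 9.41% higher, and 26 of the 75 member genes were lower by the same rule. A lower share above that of all probe sets is thus not particular to the members. At 24 h alone 3 of the 70 were lower, where 1.79% of all tested probe sets were. Each gene is read from its probe set with the highest mean, and calls are more frequent at high values. The share over all tested probe sets is thus not a like baseline for these counts of genes. Of 52 cytosolic ribosomal protein genes none was called by limma (1 had an unadjusted p under 0.05), with a median of 0.04.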

How the data were processed

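The deposited values are log2 probe set summaries of 15 arrays. Per the submitters' processing notes, GCOS 1.3.0 and GCRMA were used by the authors in a role left unstated, and the normalization between arrays is not given in the sources used here. Columns were matched to samples by name. A probe set was tested if above its array's median on at least 3 arrays. All 15 arrays entered 1 limma 3.58.1 fit (R 4.3.3) of 5 group means, two-sided, with Benjamini-Hochberg adjustment over 28897 probe sets in each of 10 comparisons, and a call is an adjusted p under 0.05. The fit was tested on simulated data. Array number limits the precision.

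Named members are, for each comparison, the called probe sets by smallest p, 1 per gene and direction, up to 12. Others were named because their probe sets disagree, because of their role or to show a class, after their values were seen. Members, gene lists, protein classes (by hand from general knowledge) and tests were chosen with earlier results of these data known. Alternatives changed the filter, normalization, array weights, samples, spike-in covariate, prior and probe set averaging, or left out each array.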

Additional observations from a re-analysis of the deposited data

Results flagged for a closer look

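In MRPL44 and MRPL41 all 3 infliximab arrays lay on one side of the CDP870 mean at 6 h and on the other side at 24 h. MRPL44 probe set 218202_x_at read 5.53, 5.11 and 5.02 with infliximab and 4.73, 4.97 and 4.85 with CDP870 at 6 h, then 4.95, 4.89 and 4.95 with infliximab and 5.25, 5.12 and 4.80 with CDP870 at 24 h. At 24 h its groups overlap. Its interaction was -0.50 ± 0.19 (SE, limma, unadjusted p = 0.020, adjusted p = 0.51). MRPL41 probe set 230034_x_at had an interaction of 0.41 ± 0.17 (unadjusted p = 0.030, adjusted p = 0.52), with -0.26 ± 0.12 at 6 h and 0.15 ± 0.12 at 24 h. Neither interaction passed the adjusted threshold.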

How the results depend on the processing

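No paired analysis was possible because the number in each sample title, used here as the replicate number, differs between all groups. These numbers run in consecutive blocks by group, and the labels do not say what they stand for. If they give an order of handling, that order cannot be told apart from the groups, in the comparisons of the agents too. The comparison of the agents over both times was the steadiest: its 35 called members became 23 with no filter and 19 to 33 when 1 array was left out, and 13 of its 15 named calls were kept whichever array was left out (not MRPS23 and MRPS14 203801_at). With probe sets averaged by gene, the latter reversed to -0.014. For infliximab at 6 h against 0 h, the 20 calls became 34 with array weights, 10 with only the groups compared, 0 with the spike-in covariate and 8 to 25 without 1 array, and the gene median ran from -0.24 to -0.15. At 24 h the 21 calls became 12 with no filter, 12 with array weights, 1 with only the groups compared, 8 without the 3 arrays that stood apart (an alternative chosen after seeing the data) and 13 to 23 without 1 array, and the gene median ran from -0.27 to -0.16. Between the agents at 6 h, 13 calls became 8 with no filter, 37 with array weights, 33 with only the groups compared, 2 with the spike-in covariate, 33 without the 3 arrays and 5 to 8 without 1 array. At 24 h, 10 became 1 with only the groups compared and 3 to 12 without 1 array. The count for infliximab at 24 h against 6 h was 0 to 4 without 1 array, and the median for CDP870 was 0.00 (0.0033) with median centring. Of 1050 alternative values of the named calls, 855 kept the call, 194 lost it and 1 reversed. The cause of these changes was not tested. The member counts above join both directions and stand without the share called over all probe sets in the same fit. They therefore do not separate a change in the members from one over the whole array. Probe sets near the bottom of the scale are the least certain in size.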
